A study of Rattus norvegicus with 12 samples.

Results

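The comparison described here is between retinas given a mimic of the microRNA miR-143 and retinas given a scrambled RNA, both in rats with oxygen-induced retinopathy (OIR). It takes 6 of the 12 libraries of the series, 3 with the mimic and 3 with the scrambled RNA. Genes were tested if they reached 1 TPM in at least 3 of these 6 libraries, which held for 15283 of the 32883 genes listed. TPM are reads per base of gene, rescaled so that each library has a common total. Each library was made from retinal RNA of rats of the Sprague Dawley strain with wild type genotype at postnatal day 18. The 6 other libraries are sham controls without retinopathy, 3 given the mimic and 3 the scrambled RNA, and they serve as the comparison without disease. The sources used here do not give the route, dose and time of the treatment or the sequence of either RNA. They leave unsaid whether a group's libraries stem from different rats, and p-values therefore measure only the spread from library to library.

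OIR is a rodent model in which high oxygen stops the growth of the retinal vessels, after which the poorly supplied retina becomes hypoxic and abnormal new vessels grow. A microRNA is a short RNA that guides Argonaute proteins to messenger RNAs, mostly through pairing between its seed near the 5′ end and sites in the 3′ untranslated region. The paired messenger is then translated less and degraded faster, so that a mimic would act on RNA levels mainly by lowering the level of messengers with such sites. miR-143 is produced together with miR-145 and is best known from smooth muscle cells and pericytes, the contractile cells around vessels.

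The mature rat sequences are shown because the seed is the stretch through which such a mimic would pair with messengers. They are those of RefSeq (GRCr8) for the endogenous microRNA, with the seed, bases 2 to 8, in capitals.
rno-miR-143-3p: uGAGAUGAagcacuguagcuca
rno-miR-143-5p: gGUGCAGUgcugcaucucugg
The 3p arm is the one usually meant by miR-143. Its seed match in a messenger would read UCAUCUC, and that of the 5p arm ACUGCAC. Among the 693 mature rat microRNAs in the table used, 0 others had the seed of the 3p arm and 0 others that of the 5p arm. The deposited table lists genes by Ensembl identifier only. The reference supplied pairs 0 of its 47357 genes with such an identifier, so genes could not be matched to names, to seed sites or to cell type markers. Genes are therefore described by level, length and direction, and 4 of them by identifier, and the labelled tissue was not checked against retinal markers.

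One of the mimic libraries, OIR mimic replicate 2, lay apart from the other 5 OIR libraries in many genes, and the main counts and medians are therefore also given without it.

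Of the 15283 genes, 0 passed an adjusted p of 0.05 for mimic against scrambled RNA in OIR (limma with Benjamini-Hochberg adjustment, a called share of 0%, smallest adjusted p 0.158). An unadjusted p below 0.05 was found for 1455 genes, 9.52% of those tested, where an even spread of p-values would give 764.1. With single OIR libraries left out this number ran from 731, without OIR mimic replicate 2, to 2334, without OIR mimic replicate 1. It was 873 with only the OIR groups in the fit. Of the 1455 genes, 284 had a higher and 1171 a lower level with the mimic, shares of 1.86% and 7.66% of the genes tested. Lower genes made up 80.5% of the 1455, against 70.3% after median-ratio scaling, 58.9% after quantile normalisation and 66.6% without OIR mimic replicate 2. Limma voom on the reads recovered from the TPM values also called 0 genes and put 349 higher and 1205 lower genes at an unadjusted p below 0.05. The differences were small. Over all tested genes the median log2 fold change was -0.05 on the log2(TPM + 1) scale, and 62.6% of the genes lay below 0 (52.2% without OIR mimic replicate 2). This median was -0.01 without OIR mimic replicate 2, -0.01 after median-ratio scaling, -0.02 with arrayWeights, which weights each library by its spread, and 0.02 after quantile normalisation, where its sign turned. The median absolute log2 fold change was 0.37 among the 1455 genes and 0.11 among all.

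**Figure D1:**
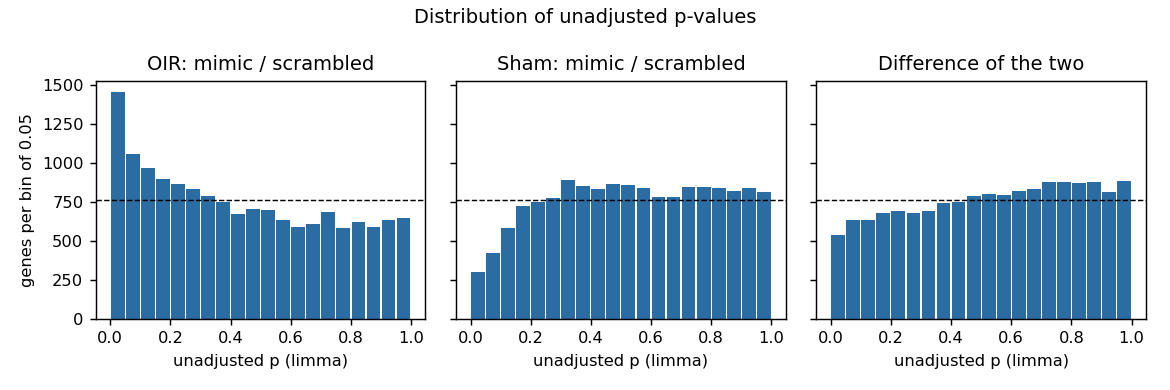
Number of genes (y axis) in each bin of 0.05 of the unadjusted limma p (x axis) for mimic against scrambled RNA in OIR, the same in sham, and the difference between both effects. The dashed line marks 764.1 genes, the number per bin if p-values were spread evenly, and the first bin holds 1455 genes in OIR, 302 in sham and 541 for the difference.

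The 2 groups of OIR libraries did not overlap in 1963 genes, 12.8% of those tested. The mimic libraries were all below the scrambled libraries in 1403 genes (9.18%) and all above them in 560 (3.66%). In the sham libraries the same count was 1032 genes (6.75%), with 597 lower (3.91%) and 435 higher (2.85%) with the mimic. With 1 library left out, 3 libraries stand against 2 and more genes separate. Without mimic replicate 2 these were 1625 lower (10.6%) and 1240 higher (8.11%). Without mimic replicate 1 they were 3663 lower (24%) and 1171 higher (7.66%). Lower genes outnumbered higher ones in each of these counts, and among the OIR counts by the least without mimic replicate 2. Whether these counts differ between OIR and sham was not tested.

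The direction differed with the abundance of a gene. Classes were formed by the mean over the 6 OIR libraries. Below 10 TPM, 339 of 4947 genes (6.85%) were lower and 41 (0.829%) higher with the mimic at an unadjusted p below 0.05. Over all tested genes these shares were 7.66% and 1.86%. Between 10 and 100 TPM, 715 of 8326 genes (8.59%) were lower and 151 (1.81%) higher. Between 100 and 1000 TPM the numbers were closer to each other, with 115 of 1927 genes (5.97%) lower and 81 (4.20%) higher. Among the 83 genes at 1000 TPM or more, 2 (2.41%) were lower and 11 (13.3%) higher. The median log2 fold change followed the same order, from -0.10 in the lowest class through -0.05 and 0.01 to 0.09 in the highest. The sham libraries showed the same order in the same classes, with medians of -0.05, -0.03, 0.01 and 0.03. After median-ratio scaling the OIR medians were -0.07, -0.01, 0.05 and 0.13. That scaling divides each library by a single number and so shifts all classes nearly alike. The order could hardly change under it, and its persistence there is no separate evidence. After quantile normalisation the OIR medians were nearly alike, at 0.01, 0.02, 0.02 and 0.02, and the lowest class no longer lay below 0. Quantile normalisation gives every library the same distribution of values, which by itself draws these medians together. It therefore cannot show whether the order holds. Lower genes then numbered 229 and higher genes 156 below 10 TPM, and 3 and 7 at 1000 TPM or more.

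By gene length, as recovered from the TPM values, the lowest medians were found at both ends. Among the 2854 genes of 4000 bases or more, 258 were lower and 15 higher with the mimic at an unadjusted p below 0.05, and 78.3% had a log2 fold change below 0. Among the 4209 genes of 1000 to 2000 bases, 243 were lower and 128 higher, and 54.2% lay below 0. Among the 1310 genes below 500 bases, 91 were lower and 24 higher, and 59.5% lay below 0. The median log2 fold change was -0.10 in both the longest and the shortest class and -0.02 at 1000 to 2000 bases, so that the median did not fall steadily with length. After quantile normalisation these medians were -0.03, -0.03 and 0.04, with 228 lower and 49 higher genes in the longest class. Sham libraries showed the same direction for the longest genes, with 84.4% below 0 and a median of -0.08, but with 6 lower and 1 higher gene at that unadjusted p. For genes below 500 bases the sham median was -0.04, with 58 lower and 26 higher. Of the genes below 500 bases, 454 reached a mean of 10 TPM. Among genes of 10 TPM or more the OIR median was -0.09 in the longest class, -0.04 in the shortest and close to 0 at 1000 to 2000 bases. The longest and the shortest class were then no longer alike.

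**Figure D2:**
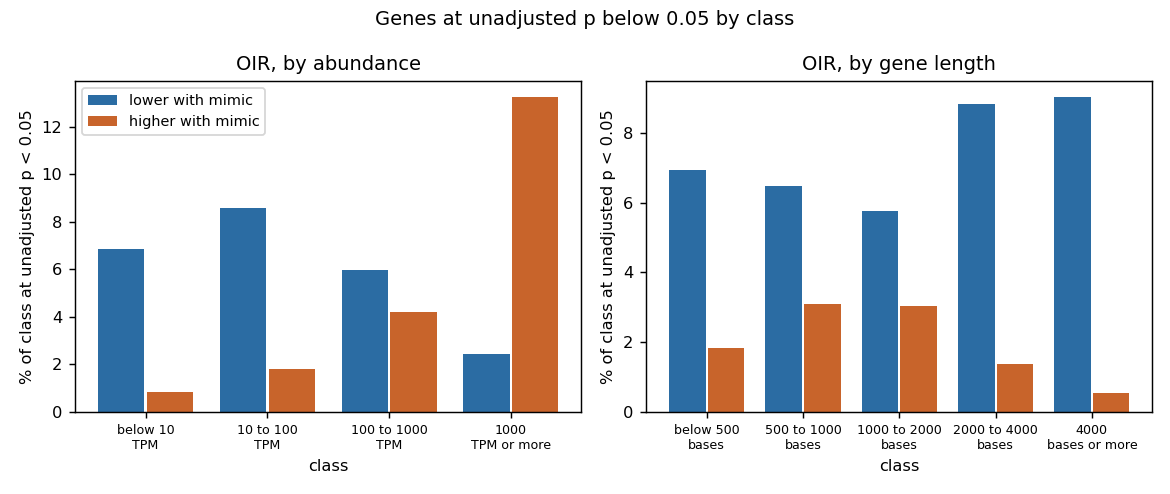
Share of tested genes at an unadjusted p below 0.05 (y axis, percent of the class) that were lower or higher with the mimic in OIR, by abundance class (left) and gene length class (right). Lower genes outnumber higher ones in every class except that of 1000 TPM or more, where 2 genes were lower and 11 higher.

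How the 6 libraries lie to each other was examined next. The root-mean-square difference between 2 libraries averaged 0.447 on the log2 scale over the 6 pairs within a group and 0.450 over the 9 pairs of a mimic and a scrambled library. The closest of all pairs was mimic replicate 1 with scrambled replicate 1, at 0.377, and the most distant was mimic replicate 2 with scrambled replicate 3, at 0.547. A mimic and a scrambled library were thus on average about as far apart as 2 libraries that had received the same RNA. The median SD of a gene within its group was 0.158 among the mimic libraries and 0.121 among the scrambled libraries of OIR, and it was 0.121 and 0.130 in the sham groups.

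**Figure D3:**
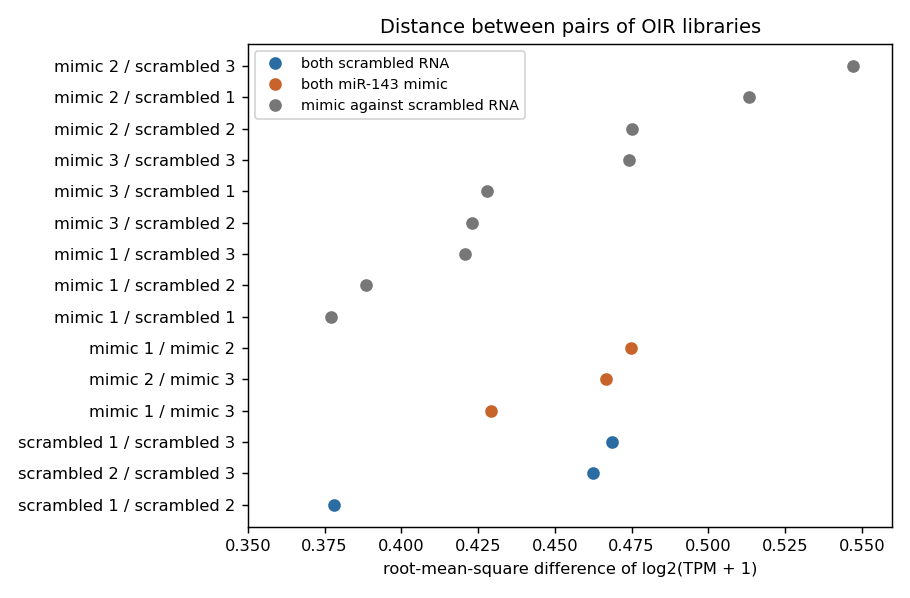
Root-mean-square difference of log2(TPM + 1) over the 15283 tested genes (x axis) for each of the 15 pairs of OIR libraries (y axis), coloured by whether both received the scrambled RNA, both the mimic, or one of each. Pairs of one mimic and one scrambled library run from 0.377 to 0.547 and span the range of the pairs within groups, 0.378 to 0.475.

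OIR mimic replicate 2 stood apart from the other mimic libraries. Over the 10336 genes of 10 TPM or more, each mimic library was set against the mean of the 3 scrambled libraries. In replicate 2, 851 genes were lower by more than 1.5-fold and 63 higher. In replicate 1 the numbers were 76 lower and 54 higher, and in replicate 3 they were 103 lower and 111 higher. The share of genes below the scrambled mean was 67.4% in replicate 2, 44.8% in replicate 1 and 55.0% in replicate 3. All 3 mimic libraries lay below the scrambled mean for 2662 of the 10336 genes and above it for 1668, while the other 6006 genes were mixed. Of the 1171 genes lower at an unadjusted p below 0.05, 996 had their lowest mimic value in replicate 2, 76 in replicate 1 and 99 in replicate 3.

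Leaving out replicate 2 of the mimic reduced the genes at an unadjusted p below 0.05 to 487 lower and 244 higher, with 0 called. In that fit the class of 1000 TPM or more held 1 higher and 0 lower genes, and the longest genes 76 lower and 19 higher, with medians of 0.04 and -0.03. Genes below 10 TPM were 164 lower and 80 higher, with a median of -0.04, and genes of 10 to 100 TPM were 278 lower and 130 higher, with a median close to 0. Genes below 500 bases were 72 lower and 42 higher, with a median of -0.04. The medians of the abundance classes and of the length classes lay closer together without this library than with it. Leaving out replicate 1 of the mimic instead raised the numbers to 1919 lower and 415 higher. In that fit limma called 27 genes at an adjusted p below 0.05, 26 lower and 1 higher with the mimic. Those 27 genes had mean levels of 0.842 to 668 TPM with a median of 73.1 TPM, and a median log2 fold change of -0.66 without replicate 1 against -0.49 with it. Replicate 1 itself lay below all scrambled libraries in 14 of these genes and within the scrambled range in 12. Replicate 1 of the mimic is also one of the 2 OIR libraries whose records carry no tags for disease and treatment, the other being scrambled replicate 3. Without both, 28 genes were called, 1 higher and 27 lower, and 17 of the 27 genes called without replicate 1 were among them. Without scrambled replicate 1 the numbers were 704 lower and 306 higher, also with 0 called.

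**Figure D4:**
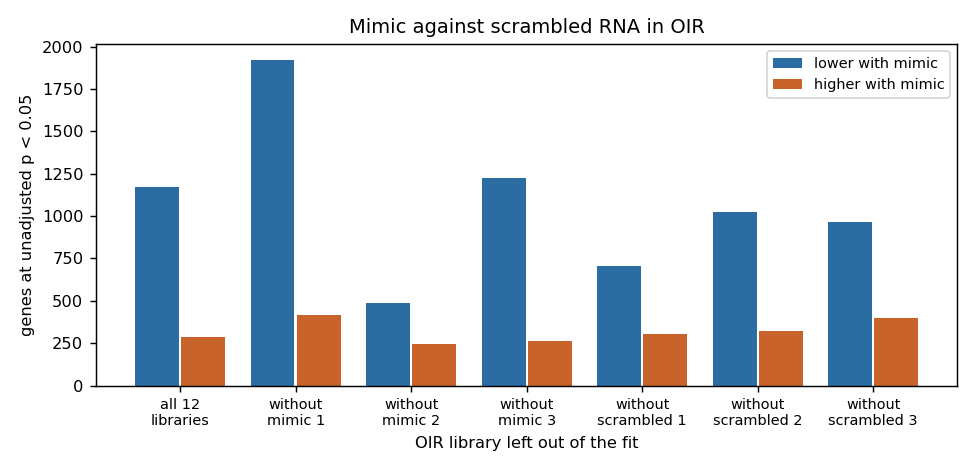
Number of genes lower or higher with the mimic in OIR at an unadjusted p below 0.05 (y axis) with all 12 libraries in the fit and with each OIR library left out (x axis). The lower genes run from 487 without mimic replicate 2 to 1919 without mimic replicate 1, and the higher genes from 244 to 415.

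The composition of the libraries showed the same library apart. Genes with a mean of 1000 TPM or more over all libraries took 20.7%, 24.7% and 21.7% of the TPM in mimic replicates 1, 2 and 3. In the scrambled replicates they took 21.5%, 21.8% and 19.2%. Mimic replicate 2 was the highest of the 6 and scrambled replicate 3 the lowest, and the groups overlapped (22.4 ± 2.07% against 20.8 ± 1.41%, SD, n = 3, exact permutation test, two-sided, p = 0.5, where 3 against 3 cannot go below 0.1). The number of genes reaching 1 TPM was 15208, 14775 and 15278 with the mimic and 15315, 15248 and 15433 with the scrambled RNA. Replicate 2 of the mimic had the fewest (exact permutation test, two-sided, p = 0.2, adjusted p = 0.6 over 6 measures of composition). The 6 sham libraries held 22.7% to 24.4% of their TPM in genes of 1000 TPM or more and had 14818 to 15119 genes at 1 TPM. On both measures mimic replicate 2 lay closer to the sham libraries than to the other 5 OIR libraries, just past the end of the sham range. The part of this difference in composition in the gene counts above was not tested.

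The most abundant gene of the OIR retinas stood at 29830, 37956 and 33260 TPM with the mimic and at 33920, 34189 and 23696 TPM with the scrambled RNA. The groups overlapped, with the highest value in mimic replicate 2 and the lowest in scrambled replicate 3, and the log2 fold change was 0.15 (SE 0.14, limma adjusted p 0.747). All of the 10 most abundant genes had their highest OIR value in mimic replicate 2 and log2 fold changes between 0.04 and 0.27. The largest of these belonged to the gene ranked 8, at 4697, 6001 and 5272 TPM with the mimic and 4910, 4603 and 3756 TPM with the scrambled RNA. Its groups overlapped as well (limma unadjusted p 0.0294, adjusted p 0.482).

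The 4 genes given by identifier were the 2 in each direction with the smallest unadjusted p among genes whose OIR groups did not overlap and whose higher group averaged at least 5 TPM. These conditions were met by 1134 genes lower and 490 genes higher with the mimic. None of the 4 passed the threshold, and the values that chose them are a description.

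ENSRNOG00000045738 stood at 21.3, 22.9 and 20.6 TPM in the mimic libraries and at 34.9, 31.3 and 31.1 TPM in the scrambled libraries of OIR. The mimic libraries were all lower, and their values lay in the range of the 6 sham libraries, 20.5 to 23.8 TPM. The log2 fold change was -0.56 (SE 0.08, limma adjusted p 0.165) in OIR and 0.05 (SE 0.08, limma adjusted p 1) in sham. The difference between both effects was -0.61 with a limma adjusted p of 0.731. In the scrambled groups, where limma called 11.2% of the tested genes between OIR and sham, the gene was higher in OIR than in sham (log2 fold change 0.54, SE 0.08, limma adjusted p 0.00296), a comparison that shares the OIR scrambled libraries with the first one. Between 107 and 189 reads per OIR library, as recovered, lay behind these values.

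ENSRNOG00000048172 stood at 45.5, 36.4 and 49.0 TPM with the mimic and at 58.8, 63.0 and 61.8 TPM with the scrambled RNA in OIR. All 3 mimic libraries were lower, replicate 2 the most. Sham libraries held 65.2 to 75.3 TPM, above every OIR library. With scrambled RNA the difference between OIR and sham did not pass the threshold (log2 fold change -0.16, SE 0.10, limma adjusted p 0.312). The log2 fold change with the mimic was -0.49 (SE 0.10, limma adjusted p 0.446) in OIR and 0.05 (SE 0.10, limma adjusted p 1) in sham, and the limma adjusted p of the difference was 1.

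ENSRNOG00000002169 stood at 8.86, 9.16 and 8.22 TPM with the mimic and at 6.31, 6.02 and 5.94 TPM with the scrambled RNA in OIR. Its mimic libraries were all higher in OIR, and they were all higher in sham too, at 11.4 to 12.2 TPM against 9.32 to 10.4 TPM. The log2 fold change was 0.46 (SE 0.09, limma adjusted p 0.446) in OIR and 0.26 (SE 0.09, limma adjusted p 1) in sham, and the difference between them was 0.20 (SE 0.13, limma adjusted p 1). With scrambled RNA the gene was lower in OIR than in sham (log2 fold change -0.60, SE 0.09, limma adjusted p 0.00346). Between 24 and 39 reads per OIR library lay behind these values.

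ENSRNOG00000030319 stood at 31.5, 40.8 and 35.6 TPM with the mimic and at 27.3, 26.3 and 23.8 TPM with the scrambled RNA in OIR. The mimic libraries were all higher, replicate 2 the most, while sham libraries of both treatments held 24.5 to 29.0 TPM. The log2 fold change was 0.46 (SE 0.10, limma adjusted p 0.446) in OIR and 0.04 (SE 0.10, limma adjusted p 1) in sham. With scrambled RNA the difference between OIR and sham was -0.02 (SE 0.10, limma adjusted p 0.916). Without mimic replicate 2 the log2 fold changes of the 4 genes in OIR, in the order given, were -0.60, -0.37, 0.43 and 0.37. Their direction could not turn in that fit, as they were chosen for OIR groups that do not overlap.

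**Figure D5:**
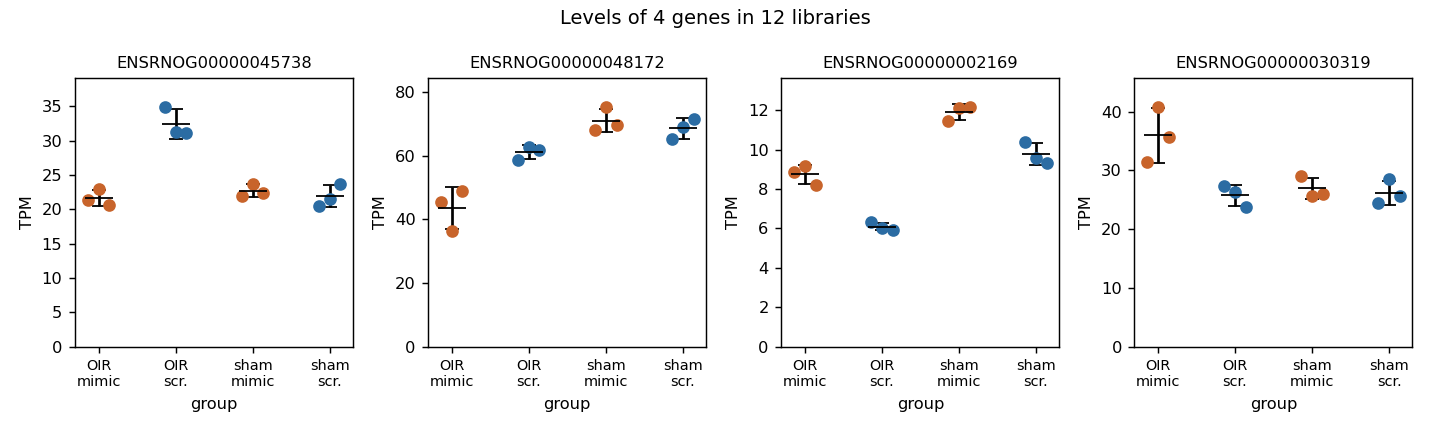
TPM (y axis, from 0) of the 4 genes given by identifier in each of the 12 libraries, by group (x axis). Points are libraries (orange for the mimic, blue for the scrambled RNA), bars the mean and SD of 3. In OIR the mimic and scrambled libraries do not overlap in any of the 4, a condition by which they were chosen, and in sham they overlap in all but ENSRNOG00000002169.

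The smallest p of all belonged to a gene that rests on almost no reads. It was listed at 0 in the 3 mimic libraries and in the 6 sham libraries, and at 1.77, 1.62 and 1.66 TPM in the scrambled libraries of OIR, which as recovered is 1 read each over 107 bases. Its limma adjusted p was 0.158. It passed the filter only through the scrambled libraries, which fixed its direction in advance. In all, 10 of the 15283 tested genes were listed at 0 in the 3 mimic libraries and at 1 TPM or more in each scrambled library of OIR. They had 3 to 7 reads in the 3 scrambled libraries together. The opposite pattern was found in 3 genes. Genes of either pattern passed the filter only through the group in which they were listed above 0. In sham the counts were 7 and 3.

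Of the 10336 genes of 10 TPM or more, 33 were lower and 12 higher by more than 2-fold with the mimic in OIR, and the groups did not overlap in 8 and 1 of these. Without mimic replicate 2 the numbers beyond 2-fold were 27 lower and 22 higher. For 85.4% of the 10336 genes the unadjusted 95% interval lay within a 1.5-fold change in either direction, and for 96.8% within 2-fold. Below 10 TPM the interval lay within 1.5-fold for 35.5% of the genes. One read in a gene of 2000 bases corresponds to 0.0845 to 0.0987 TPM in the 6 OIR libraries, which had 10537600 to 11988672 reads on genes.

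The same comparison in sham retinas takes its group means from other libraries, but its spread was estimated from all 12 libraries together. Limma called 0 genes there (0%, smallest adjusted p 0.208), and 302 genes (1.98%), 129 higher (0.844%) and 173 lower (1.13%), had an unadjusted p below 0.05. Limma voom called 0 with 136 higher and 148 lower. The numbers in sham moved with single libraries, to 219 higher and 506 lower without sham mimic replicate 1, 219 and 538 without sham scrambled replicate 3, and 91 and 114 without sham mimic replicate 2. With only the groups compared in the fit, they were 169 higher and 251 lower in sham, against 197 and 676 in OIR. With arrayWeights they were 946 higher and 2443 lower in sham, more than the 734 and 1395 of OIR in that fit. That more genes reach this p in OIR than in sham thus did not hold under every setting. The 1171 genes lower with the mimic in OIR at an unadjusted p below 0.05 had a median log2 fold change of -0.39 in OIR and -0.04 in sham, where the median of all genes was -0.03. In sham 64.9% of them lay below 0, close to the 60.3% of all genes. The 284 higher genes had medians of 0.22 in OIR and 0.04 in sham. In sham 31.0% of them lay below 0, against 60.3% of all genes. Whether these shares differ was not tested. When the mimic effect of OIR was tested directly against that of sham, limma called 0 genes (0%, smallest adjusted p 0.2), with 541 at an unadjusted p below 0.05 (3.54%), of which 141 were higher (0.923%) and 400 lower (2.62%). Limma voom called 0 there as well, with 120 higher and 538 lower. Without OIR mimic replicate 2 limma called 0, with 196 higher and 281 lower. The numbers were 178 higher and 933 lower without OIR mimic replicate 1, 220 and 426 without OIR scrambled replicate 3, 236 and 896 without both OIR libraries lacking tags, and 958 and 978 with arrayWeights. In the fit of all 12 libraries an effect of the mimic that differs between retinopathy and sham was thus not shown for any gene. Sham mimic replicate 1 and sham scrambled replicate 1 share a number in their column names, whose meaning is not stated, and no OIR columns share a number. In every mimic column of the deposited table the name carries the letter L and in every scrambled column the letter R, so that this letter and the treatment cannot be told apart.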

How the data were processed

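Retinal RNA was sequenced in 12 libraries, and the authors deposited gene levels in TPM as 1 table with 32883 Ensembl identifiers. The lines above the table pair each column with a sample title, and 0 columns were left unassigned. TopHat, Cufflinks, Cuffdiff, FastQC and build rn6 are named in the submitters' processing notes. The sources used here do not name the counting tool or the annotation release.

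Limma 3.58.1 (R 4.3.3) was run on log2(TPM + 1) of all 12 libraries, with a mean per group, trended and robust eBayes and 8 residual degrees of freedom. The Benjamini-Hochberg adjustment covered the 15283 genes. This scale understates the change of low genes. Reads and gene lengths were recovered from the TPM values as the smallest whole numbers that fit, for 22310 of 22310 rows above 0. Both may be too small by a whole factor where reads are few. The recovery and the fit were tested on simulated data, and the outcomes are not given here. The libraries simulated for the fit held independent noise for each gene, without differences shared by many genes of a library. That simulation therefore cannot show how the fit behaves with a library such as OIR mimic replicate 2. The rule for identifiers asked for symbols, and for up to 12 genes in each direction. Without symbols it allowed 2. Planned gene lists and seed sites could not be joined to the identifiers and were not run. The comparison, the rules and the lists were chosen with earlier results of these data known. Alternatives were 24 planned settings and 1 added after the data were seen (voom on recovered reads).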

Additional observations from a re-analysis of the deposited data

How the results depend on the processing

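For the mimic in OIR the number of called genes was 0 in the reported fit and in 18 of 25 alternatives. It was 1 with a pseudocount of 0.1, with no filter, with only the groups compared, without the trend and robust options and with arrayWeights, and 28 without the libraries lacking tags. With 1 library left out it ran from 0 to 27. The call with no filter, and that without the trend and robust options, fell on the gene with 1 read in each OIR scrambled library. That gene was also among the 27 called without OIR mimic replicate 1. For the mimic in sham a pseudocount of 0.1 gave 2, a pseudocount of 0.5 gave 1, arrayWeights gave 1, and leaving out 1 library gave 0 to 1. The interaction gave 2 with a pseudocount of 0.1, and 1 with no filter, without trend and robust options and with arrayWeights, and 0 to 1 with 1 library left out. ENSRNOG00000045738 was called with arrayWeights (log2 fold change -0.62, limma adjusted p 0.0356). Over all 25 alternatives the 4 genes kept their direction. Their choice by OIR groups that do not overlap fixed this in advance for nearly all of these settings. Only median-ratio scaling, quantile normalisation and voom, which rescale the libraries against each other, could have turned a direction. Of the genes at an unadjusted p below 0.05 in OIR, 80.5% were lower with the mimic, and 65.5% with arrayWeights. The 284 higher and 1171 lower genes at that p became 197 and 676 with only the groups compared and 734 and 1395 with arrayWeights. The cause of these changes was not tested. Titles give the groups the same replicate numbers. In OIR the deviations of same-numbered libraries from their group means correlated at 0.05, 0.08 and -0.03, and in sham at 0.29, -0.05 and 0.12, the first for the 2 libraries that share a number in their column names. In neither condition did every pair exceed 0.1 or every library correlate best with its own number, so the numbers were not taken as pairs. With the replicate block the counts of called genes stayed at 0 in OIR, in sham and for the interaction, and 1508 lower and 386 higher genes in OIR, and 334 and 192 in sham, had an unadjusted p below 0.05. With 3 libraries a group and 1 read worth up to 0.0987 TPM in a gene of 2000 bases, genes near 1 TPM rest on few reads.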
